A study of Mus musculus with 24 samples.

Results

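NF-kappaB is a family of dimeric transcription factors, and this account follows 10 genes of its core in mouse cortex 1 day after a transient stroke. They are the 5 subunit genes Nfkb1, Nfkb2, Rela, Relb and Rel, the 3 inhibitor genes Nfkbia, Nfkbiz and Tnfaip3, and the TNF-family receptor genes Tnfrsf1a and Tnfrsf12a. The members were the rows with these 10 symbols in the 4 deposited tables of log2 CPM (read counts scaled to the size of the library). The symbols were chosen with earlier results of these data known, and whether a row is listed may depend on its level. Of the 10 symbols, 8 were among the 14014 genes listed in all 4 tables. Nfkb2 was listed in 3 tables and Tnfrsf12a in 1, so all 10 were found among the 14769 genes listed in at least 1 table.

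In resting cells the NF-kappaB dimers are held in the cytoplasm by IkappaB proteins, of which Nfkbia encodes the best known. Binding of TNF to its receptor, encoded by Tnfrsf1a, leads through adaptors and kinases to the destruction of IkappaB, and the freed dimers enter the nucleus and bind kappaB sites. Several genes of the system are themselves NF-kappaB targets, including Nfkbia, Nfkb2 and Tnfaip3, which close feedback loops. In the brain the pathway is known for its part in the inflammatory response of glia, vessels and invading leukocytes after injury.

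The study sequenced ribosome-depleted total RNA from cortex of male mice aged 3 to 4 months. All animals had a transient middle cerebral artery occlusion of 1 hour followed by 1 day of reperfusion, so the series holds no animal without a stroke. The strain given for every animal is C57BL/6N-Cdr1asem1Nikr, and 6 animals are labelled wild type (WT) and 6 ciRS-7 knockout (KO). ciRS-7 is the circular RNA made from Cdr1as. Each animal gave 2 cortex samples, marked CL and PI, letters that the labels do not spell out. With both genotypes and both sample kinds there are 4 groups of 6 libraries, written CL WT and PI WT for wild type and CL KO and PI KO for the knockout.

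Library depth, read from the steps between low values, was 5.27 to 10.5 M reads in 23 libraries and 3.74 to 3.83 M in CL KO replicate 6, which stood apart. In the deposited tables the 2 lowest values of each gene in a group of 6 were equal, as were the 2 highest (100% of genes), having been drawn in to the quartiles of the group. CL KO replicate 6 held an untied value in 10.5% to 10.6% of genes, against 19.3% to 47.0% in the other libraries. The lowest and highest values given below are those quartiles, and the medians are unaltered. Each mean is that of the 4 values per group that can be solved from the tables, with its standard error (SE, n = 6 libraries), and the test is a moderated trimmed-mean test with limma and Benjamini-Hochberg adjustment over all genes of a table. An adjusted p under 0.05 counted as a call. Cdr1as was deposited at 11.35 to 11.89 log2 CPM in WT and at no more than 0.166 CPM in KO. All 6 cortical excitatory neuron markers on the list were present in every table, with summed levels of 782 to 953 CPM.

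Promoter sequence was examined because several members are textbook NF-kappaB targets. RefSeq promoter tables for GRCm38.p6, the patch release of the mm10 build named in the submitters' processing notes, held the 250 bases before a transcription start for 7 members: Nfkb2, Rela, Rel, Nfkbia, Tnfaip3, Tnfrsf1a and Tnfrsf12a. Nfkb1, Relb and Nfkbiz had no entry. On either strand, the kappaB consensus was matched in 4 of the 7 (Nfkb2, Rel, Nfkbia and Tnfaip3), and in 4.46% of the 27025 genes with a window. The sequences below run 5′ to 3′ along the gene's strand, with kappaB matches in capitals. They show the 4 members with a match, and Tnfrsf1a, the member with the largest difference between PI and CL, which has none. Stretches were shortened to bases outside annotated exons, except for Nfkb2, where 30 bases around a match are given because they lie in an annotated exon.

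Nfkbia, chr12:55492648-55492897, minus strand: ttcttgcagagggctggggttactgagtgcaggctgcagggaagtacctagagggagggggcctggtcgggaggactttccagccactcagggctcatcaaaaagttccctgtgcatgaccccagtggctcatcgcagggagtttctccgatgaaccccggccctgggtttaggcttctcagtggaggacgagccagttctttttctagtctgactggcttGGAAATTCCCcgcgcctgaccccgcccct
Tnfaip3, chr10:19015411-19015547, minus strand: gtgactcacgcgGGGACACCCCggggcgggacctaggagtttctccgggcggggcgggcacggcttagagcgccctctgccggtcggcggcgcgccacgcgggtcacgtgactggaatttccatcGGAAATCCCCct
Rel, chr11:23770971-23771219, minus strand: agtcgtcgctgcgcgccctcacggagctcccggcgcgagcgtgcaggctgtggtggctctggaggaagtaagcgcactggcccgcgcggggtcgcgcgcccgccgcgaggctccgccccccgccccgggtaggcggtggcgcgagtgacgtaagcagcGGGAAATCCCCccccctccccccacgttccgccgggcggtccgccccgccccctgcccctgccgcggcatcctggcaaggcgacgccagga
Nfkb2, chr19:46304689-46304718, plus strand: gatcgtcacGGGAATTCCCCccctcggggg
Nfkb2, chr19:46305696-46305725, plus strand: ggtattttcGGGACTTTCCtaagcagcact
Tnfrsf1a, chr6:125349509-125349722, plus strand: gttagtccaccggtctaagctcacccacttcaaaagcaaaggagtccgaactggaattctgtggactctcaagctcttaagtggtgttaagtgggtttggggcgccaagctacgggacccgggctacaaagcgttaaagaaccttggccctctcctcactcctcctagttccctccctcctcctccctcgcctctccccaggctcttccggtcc

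In Nfkbia the match lies 29 to 20 bases before the start. In Tnfaip3 one match lies 12 to 3 bases before the start and another 125 to 116 bases before it. The Rel stretch holds 2 overlapping matches that together reach from 92 to 82 bases before the start, and the first Nfkb2 stretch likewise holds 2 that overlap. An AP-1 site (TGANTCA, both strands) was matched in 2 of 7 members and 7.82% of genes, and a GC box (GGGCGG, both strands) in 6 of 7 members and 35.36% of genes. These matches describe letters in a short window and show no binding.

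The first question was how the members differed between PI and CL cortex of the same animals. In WT, Tnfrsf1a and Nfkb2 rose in PI cortex (3.61-fold and 2.23-fold), and in KO Tnfrsf1a rose (3.89-fold). These are 2 of 9 members listed in WT, where 10.6% of all 14489 genes were called, and 1 of 9 in KO, where 10% of 14338 were called. Of the called members, Nfkb2 was listed only where a PI group was present. Its row may have been kept through the group in which it is higher. Nfkb2 is among the 9 in the counts and medians below, which its inclusion may raise. All called members were higher in PI, as were 754 of the 1537 genes called in WT and 732 of the 1440 called in KO. Genes called higher made up 5.2% and 5.11% of all genes. All 9 means lay higher in PI in both genotypes, against 52.3% and 49.9% of all genes. The median difference of the 9 was 0.31 in WT and 0.44 in KO on the log2 scale, and that of all genes was 0.01 and 0.00. At an unadjusted p under 0.05 the count was 4 of 9 in WT (23.9% of all genes) and 5 of 9 in KO (24.9%). The values that can be solved were higher in PI without overlap for 4 of 9 in WT (13.2% of all genes) and 2 of 9 in KO (13.4%). Where they do not overlap, the deposited PI value is higher in every animal by construction. In these bulk samples, more cells of a type and more RNA per cell cannot be told apart.

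**Figure D1:**
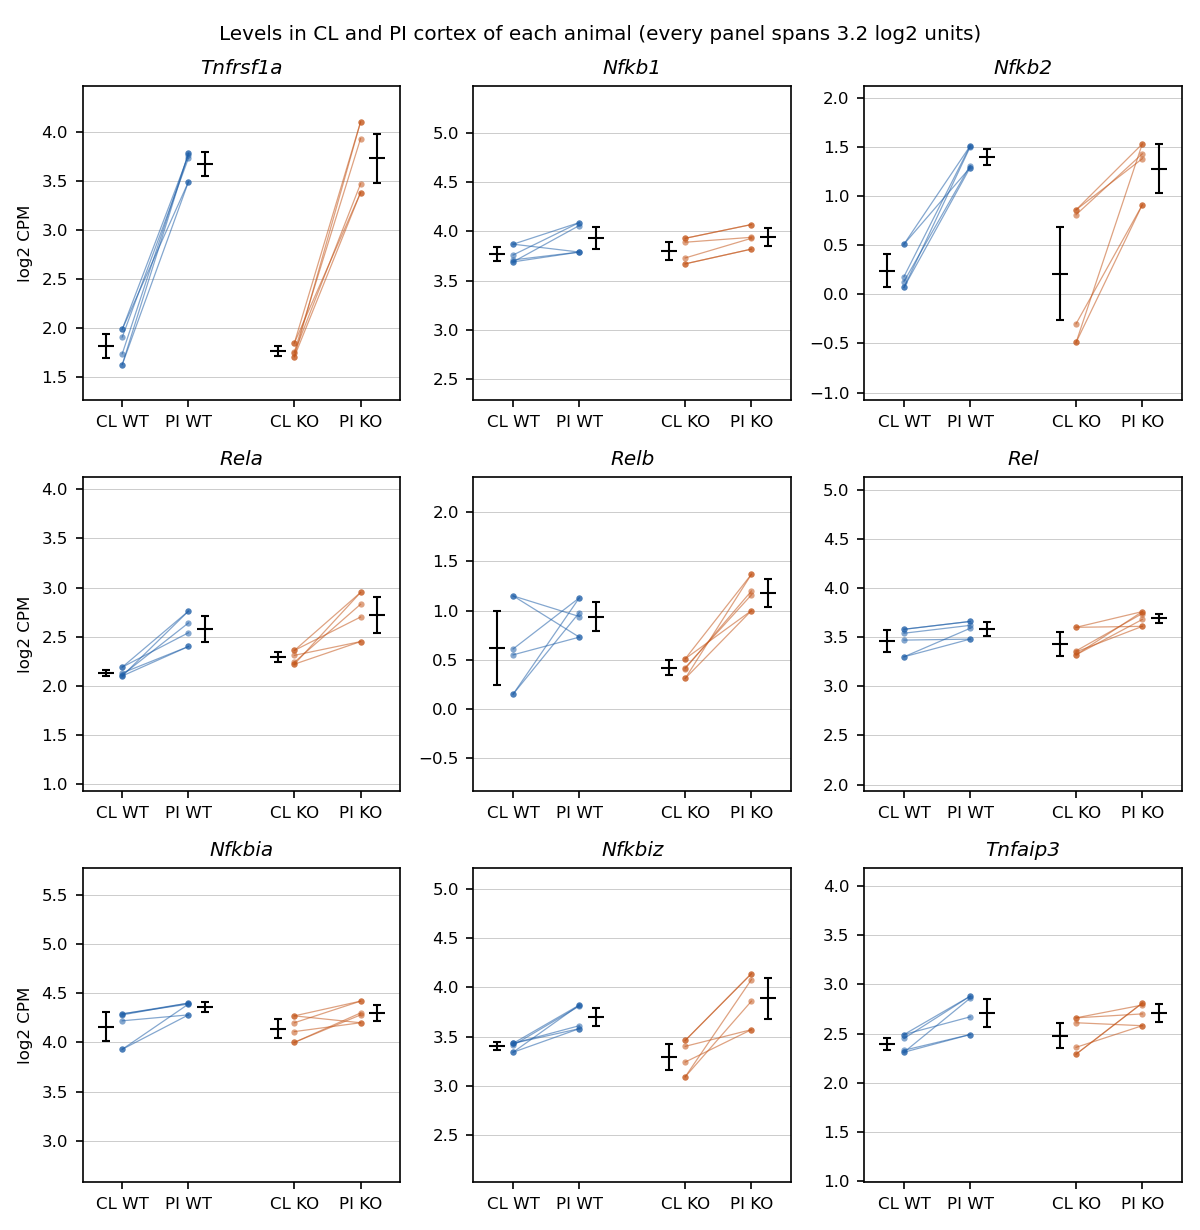
Deposited log2 CPM of the 9 members listed in both tables of PI and CL, with 1 line per animal (WT blue, KO orange). Black bars are the trimmed mean ± SE of each group (n = 6). Tnfrsf1a lies between 1.63 and 1.99 in CL WT and between 3.49 and 3.78 in PI WT, and no other panel shows so wide a step.

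Tnfrsf1a encodes TNF receptor 1, the broadly expressed receptor for soluble TNF, and lies on chromosome 6 at 125349362 to 125362484 (plus strand, mm10). Its log2 CPM in CL WT was 1.63 at the lowest, 1.83 at the median and 1.99 at the highest, and in PI WT 3.49, 3.74 and 3.78. In KO it was 1.71, 1.75 and 1.85 in CL, and 3.38, 3.70 and 4.10 in PI. Every PI library lay above every CL library of its genotype among the values that can be solved, and the PI value was higher in 6 of 6 animals of each genotype. Counts of animals are made on the deposited values throughout; the lowest and highest library of each group are drawn in there, so the true order within their animals is not known. The trimmed means were 1.82 ± 0.12 and 3.67 ± 0.12 log2 CPM in WT, a difference of 1.85 (SE 0.16, 95% confidence interval 1.50 to 2.21, adjusted p = 3.32e-05). In KO they were 1.77 ± 0.05 and 3.73 ± 0.25, a difference of 1.96 (SE 0.21, interval 1.49 to 2.42, adjusted p = 0.000174). The PI KO libraries spread more widely than the PI WT libraries. Without CL KO replicate 6, in limma on the deposited values, the KO difference was 1.97. By size of increase Tnfrsf1a stood 76th of 14489 genes in WT and 66th of 14338 in KO.

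The genes whose 4 differences (PI minus CL in each genotype, KO minus WT in CL and in PI) came closest to those of Tnfrsf1a, among 14014 genes, were Glipr2, Emp1 and Slc14a1, at Euclidean distances of 0.16, 0.22 and 0.23 log2 units. Glipr2 differed between PI and CL by 1.91 in WT and 2.05 in KO. Emp1, which encodes an epithelial membrane protein, differed by 1.91 and 1.82, and Slc14a1, which encodes a urea transporter, by 1.97 and 1.88. The 4 comparisons share libraries in pairs, so the likeness is a description.

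The cell type marker lists gave the following values beside these differences. In WT the summed level of the 8 microglial markers was 169 to 184 CPM in CL and 171 to 195 in PI, and 2 of the 8 were called higher and 2 lower. In KO it was 180 to 198 CPM and 188 to 225, with 2 higher and 1 lower. The 8 endothelial markers summed to 92.0 to 135 CPM in CL WT and 94.0 to 134 in PI WT, with none called, and to 105 to 122 and 106 to 116 in KO, with 1 called lower. By gene, 7 of the 8 lay higher in PI in each genotype, with a median log2 difference of 0.27 in WT (3 at an unadjusted p under 0.05) and 0.20 in KO (4). The 8 astrocyte markers summed to 7350 to 7750 CPM in CL WT and 6380 to 6780 in PI WT (1 called higher, 3 lower), and to 7380 to 7880 and 6190 to 6880 in KO (1 higher, 1 lower). The 8 neuronal markers summed to 8370 to 8960 CPM in CL WT and 7190 to 7940 in PI WT, with 3 called lower, and in KO to 8250 to 8620 and 6980 to 7700, also with 3 called lower. Of 11 neutrophil and monocyte markers only Csf3r was listed in the tables of PI and CL, at 1.31 to 2.43 CPM, and none of 7 lymphocyte markers was. S100a8 and S100a9 were listed only in the table of PI KO and PI WT. The other neutrophil and monocyte markers, Ly6g, Mpo and Ccr2 among them, were in no table. The 6 oligodendrocyte markers summed to 2080 to 2270 CPM in CL WT and 1430 to 2040 in PI WT (1 called lower), and to 1660 to 2250 and 1590 to 1810 in KO (none called). Of 6 striatal markers 4 were listed, with a median sum of 127 CPM in CL WT and 109 in PI WT (1 called higher, 1 lower), and of 5 choroid plexus markers only Kl was, at 1.62 to 3.63 CPM. The part of these shifts in the results was not tested.

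Tnfrsf12a, the receptor for TWEAK (Tnfsf12), lies on chromosome 17 at 23675445 to 23677468 (minus strand). It was listed only in the table of PI KO and PI WT, so no comparison with CL cortex could be made. Its log2 CPM was 1.12 at the lowest, 1.43 at the median and 1.66 at the highest in PI WT, and 0.59, 0.98 and 1.45 in PI KO. The mean level was 2.64 CPM in PI WT, about 18.1 reads at the median depth of that group. The groups overlapped.

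Among the subunits, Nfkb2 showed the largest difference. It encodes p100, the precursor of p52 and itself an inhibitor of RelB dimers, and lies on chromosome 19 at 46304320 to 46312385 (plus strand). Its log2 CPM was 0.07 at the lowest, 0.16 at the median and 0.51 at the highest in CL WT, and 1.29, 1.41 and 1.51 in PI WT. No PI WT value that can be solved reached down to those of CL WT, and PI was higher in 6 of 6 animals on the deposited values. The difference was 1.16 (SE 0.27, interval 0.57 to 1.75, adjusted p = 0.0165), a 2.23-fold rise.

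In KO the PI libraries held 0.91, 1.40 and 1.53 log2 CPM of Nfkb2, and the CL libraries -0.49, 0.25 and 0.86. The groups overlapped, with PI higher in 6 of 6 animals. The CL KO libraries were far more spread than the CL WT libraries, with 3 at 0.81 to 0.86 and 3 at -0.49 to -0.30. The difference was 1.07 (SE 0.45, interval 0.10 to 2.04) and did not pass (adjusted p = 0.157). In limma on the deposited values, whose spread is understated, the adjusted p was 0.00507 with all libraries and 0.00277 without CL KO replicate 6, where the difference was 1.20. The level is low, at 8.37 reads in CL WT and 18.5 in PI WT at the median depth of those groups. Nfkb2 was not listed between CL KO and CL WT, so its row may have been kept through its PI level. Nfkb2 shares 830 exon bases with Psd and AC114539.1 on the minus strand, and the use of strand in counting is not given in the sources used here. Psd differed by -0.17 in WT and -0.18 in KO and passed in neither.

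Rela encodes p65, the main activating subunit, and lies on chromosome 19 at 5637483 to 5648130 (plus strand). Its log2 CPM was 2.10, 2.12 and 2.19 (lowest, median, highest) in CL WT and 2.40, 2.59 and 2.76 in PI WT. In KO it was 2.22, 2.28 and 2.36 in CL and 2.45, 2.77 and 2.95 in PI. The CL values lay close together and the PI values were spread upward from them, with PI higher in 6 of 6 animals of each genotype. Among the values that can be solved, the groups did not overlap in WT but overlapped in KO. The difference was 0.45 (SE 0.16, interval 0.10 to 0.79) in WT and 0.44 (SE 0.18, interval 0.04 to 0.84) in KO. Neither passed, at adjusted p = 0.0997 and 0.162.

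Relb encodes the partner of p52 in the alternative pathway and lies on chromosome 7 at 19606217 to 19629438 (minus strand). In WT its log2 CPM was 0.15, 0.58 and 1.15 in CL and 0.73, 0.96 and 1.13 in PI. The groups overlapped, with PI higher in 4 of 6 animals. In KO it was 0.31, 0.42 and 0.51 in CL and 1.00, 1.18 and 1.37 in PI. The values that can be solved did not overlap, with PI higher in 6 of 6 animals. The difference was 0.31 (SE 0.37, interval -0.49 to 1.12, adjusted p = 0.674) in WT and 0.77 (SE 0.28, interval 0.17 to 1.37, adjusted p = 0.099) in KO. With a variance prior that does not follow the mean, the KO difference passed (adjusted p = 0.0233). Relb is read from 9.44 to 14.6 reads a library at the median depth of its group.

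Nfkb1 encodes p105, the precursor of p50 (chromosome 3, 135584655 to 135691547, minus strand). Its median log2 CPM was 3.73 in CL WT and 3.93 in PI WT, and 3.81 and 3.93 in KO, with overlapping groups. PI was higher in 5 of 6 animals in WT and 6 of 6 in KO. The differences were 0.17 (interval -0.09 to 0.42) and 0.14 (interval -0.13 to 0.41). Rel encodes c-Rel, best known from lymphocytes (chromosome 11, 23736847 to 23770970, minus strand). Its median log2 CPM was 3.51 in CL WT and 3.60 in PI WT, and 3.36 and 3.71 in KO. The groups overlapped, with PI higher in 6 of 6 animals of each genotype. The differences of 0.12 (interval -0.15 to 0.39) and 0.27 (interval -0.02 to 0.55) did not pass (adjusted p = 0.633 and 0.227).

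The inhibitors differed less than Tnfrsf1a and Nfkb2, and none passed. Nfkbiz encodes IkappaB-zeta, a nuclear protein that acts with p50 on secondary response genes (chromosome 16, 55811375 to 55838899, minus strand). Its log2 CPM was 3.34, 3.42 and 3.43 in CL WT and 3.58, 3.71 and 3.82 in PI WT. In KO it was 3.09, 3.32 and 3.46 in CL and 3.57, 3.97 and 4.14 in PI. The values that can be solved did not overlap in WT but overlapped in KO. PI was higher in 6 of 6 animals of each genotype. The difference was 0.31 (SE 0.11, interval 0.07 to 0.54, adjusted p = 0.0973) in WT and 0.60 (SE 0.19, interval 0.19 to 1.02, adjusted p = 0.0668) in KO.

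Tnfaip3 encodes A20, a ubiquitin-editing enzyme that ends TNF receptor signals (chromosome 10, 19000910 to 19015657, minus strand). Its log2 CPM was 2.31, 2.39 and 2.49 in CL WT and 2.49, 2.76 and 2.88 in PI WT, and 2.29, 2.48 and 2.66 in CL KO and 2.58, 2.74 and 2.81 in PI KO. The groups overlapped in both genotypes, with PI higher in 6 of 6 animals in WT and 5 of 6 in KO. The differences were 0.32 (interval -0.03 to 0.67, adjusted p = 0.264) and 0.23 (interval -0.13 to 0.60, adjusted p = 0.434).

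Nfkbia encodes IkappaB-alpha, whose gene is among the quickest NF-kappaB targets (chromosome 12, 55489410 to 55492647, minus strand). Its log2 CPM was 3.93, 4.25 and 4.29 in CL WT and 4.28, 4.39 and 4.40 in PI WT, and 4.00, 4.16 and 4.27 in CL KO and 4.20, 4.29 and 4.42 in PI KO. PI was higher in 6 of 6 animals in WT and 5 of 6 in KO, and the groups overlapped. The differences were 0.20 (interval -0.08 to 0.48) and 0.16 (interval -0.09 to 0.42), and neither passed (adjusted p = 0.388 and 0.435). Of the 4 members with a kappaB match in their window, only Nfkb2 was called in WT and none in KO, beside 10.6% and 10% of all genes. Tnfrsf1a, which has no match, was called in both genotypes. A link between match and call was not tested.

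**Figure D2:**
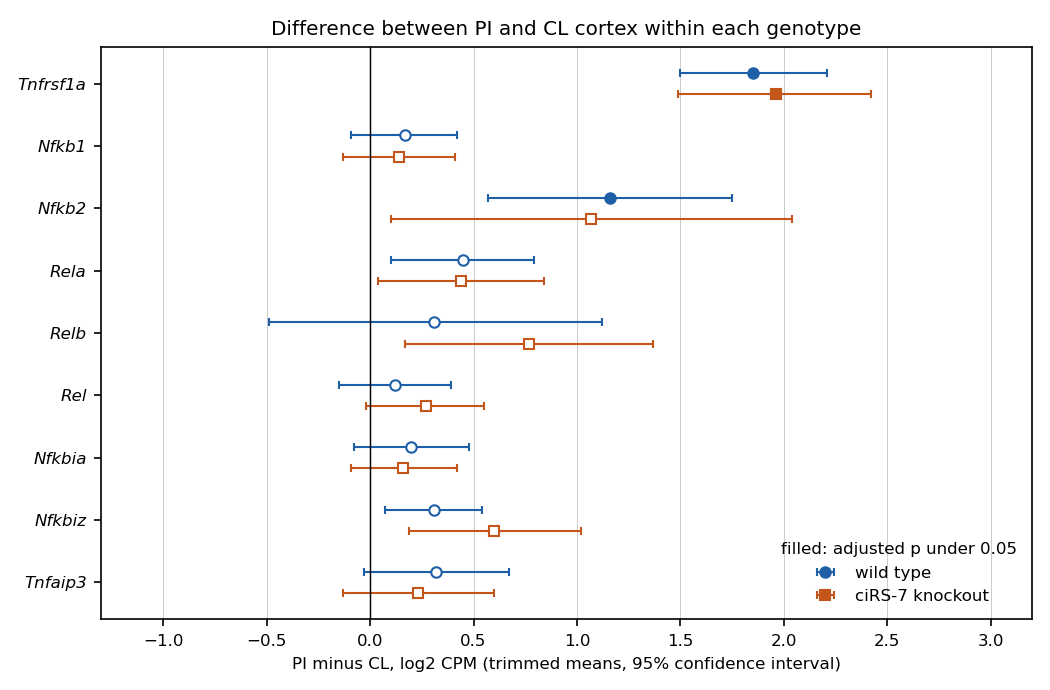
Difference of trimmed means between PI and CL cortex in log2 CPM, with 95% confidence intervals, for 9 members in WT (circles) and KO (squares). Filled symbols passed the test: Tnfrsf1a in both genotypes (1.85 and 1.96) and Nfkb2 in WT (1.16).

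Because both samples of a pair come from 1 animal, the animal was also used as a block. This was possible only in limma on the deposited values, whose spread within groups is understated and which calls 45.6% of all genes in WT and 47.1% in KO. In that fit 7 of 9 members passed in WT and 8 of 9 in KO. In WT these were Nfkb1 (adjusted p = 0.0471), Rela (0.001), Nfkbia (0.0173), Nfkbiz (0.00165) and Tnfaip3 (0.00566), besides Nfkb2 and Tnfrsf1a. In KO they were Nfkb1 (adjusted p = 0.021), Nfkb2 (0.0023), Rela (0.00344), Relb (0.001), Rel (0.0072), Nfkbia (0.031) and Nfkbiz (0.00078), besides Tnfrsf1a. The differences themselves are the same in both fits.

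Levels of different members can be set side by side only per length. Per kilobase of annotated exon, in the table of PI WT and CL WT, Nfkbia stood highest in CL WT at 3.47 log2 CPM per kilobase, followed by Nfkbiz at 1.07. Rel (0.56), Rela (0.52), Tnfrsf1a (0.44) and Nfkb1 (0.17) came next. The first 3 of these lay within their standard errors of each other. Tnfaip3 (-0.46), Relb (-1.33) and Nfkb2 (-1.95) were lowest. In PI WT Tnfrsf1a stood second, at 2.30 log2 CPM per kilobase, above Nfkbiz at 1.38, and the order of the others was as before except that Rela (0.96) stood above Rel (0.68) and Nfkb2 (-0.79) above Relb (-1.02). The exon length counts all annotated transcripts, so it understates the level of genes with many alternative exons.

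The other genes of the pathway were taken from lists by role. Of 30 kinases, adaptors and ubiquitin enzymes, 27 were listed in WT and 26 in KO, and 3 rose in each genotype (11.1% and 11.5% of those listed, beside 10.6% and 10% of all genes called in either direction and 5.2% and 5.11% called higher), with none called lower. These were Myd88, the adaptor of Toll-like and IL-1 receptors (1.16 in WT, 1.11 in KO, log2 difference), Birc3, the ubiquitin ligase cIAP2 (0.95 and 1.34), and Ripk1, the kinase recruited to TNF receptor 1 (0.64 and 0.54). Their adjusted p ranged from 0.00443 to 0.0109 in WT and from 0.00614 to 0.0464 in KO. The median difference over the listed genes was 0.06 in WT and 0.07 in KO. Tradd, the adaptor that binds TNF receptor 1, differed by 0.17 in WT (adjusted p = 0.802) and -1.10 in KO (adjusted p = 0.0544), and did not pass.

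Of 13 other inhibitors and IkappaB proteins, 8 were listed and none was called in either genotype, beside 10.6% and 10% of all genes. The median differences were 0.06 and 0.01. At an unadjusted p under 0.05 the counts were 1 and 2 of 8, beside 23.9% and 24.9% of all genes. The smallest p belonged to Nkiras1 in WT (-0.20, adjusted p = 0.114) and Tax1bp1 in KO (0.17, adjusted p = 0.0655). With limma on the deposited values, 35 pathway genes of all 5 lists together were called in WT and 36 in KO, against 17 and 16 by the trimmed-mean test. That limma fit calls 44.6% and 46.5% of all genes.

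Of 22 other TNF-family receptors, 8 were listed, and 2 rose in each genotype with none called lower, beside 10.6% and 10% of all genes called (5.2% and 5.11% higher). Ltbr, the lymphotoxin-beta receptor, which feeds the alternative pathway, rose in both (1.13 in WT, adjusted p = 0.00548; 1.51 in KO, adjusted p = 0.00236). Tnfrsf11a, which encodes RANK, rose in WT (0.64, adjusted p = 0.0134) and differed by 0.23 in KO (adjusted p = 0.439). Tnfrsf1b, which encodes TNF receptor 2, rose in KO (1.24, adjusted p = 0.0487) and differed by 0.69 in WT (adjusted p = 0.228). The interaction was not called for either (-0.41 and 0.56, adjusted p = 0.992 each). Of 18 TNF-family ligands only Eda and Tnfsf12 were listed, and neither was called. Their log2 differences were -0.27 and -0.11 in WT and -0.26 and -0.02 in KO. Tnf itself was in no table.

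Of 34 textbook NF-kappaB target genes, 12 of 20 listed rose in PI cortex of WT and 11 of 21 in KO, with none called lower, beside 10.6% and 10% of all genes called. The median difference over the listed targets was 0.53 and 0.69 log2 units. The called targets Icam1, Lcn2, Tlr2, Ccl2 and Il1a were not listed between CL KO and CL WT. Their rows may have been kept through their PI levels, which would raise these shares and medians. Lcn2, an iron-binding acute-phase protein, rose by 3.38 in WT (10.4-fold, adjusted p = 1.87e-06) and by 3.52 in KO (11.4-fold, adjusted p = 1.46e-06). Tlr2, a Toll-like receptor, rose by 2.73 and 2.40 (adjusted p = 0.000337 and 0.00145). Its solvable CL values were no more than 0.857 CPM in WT and 0.812 CPM in KO. In the shallowest library of those groups 3 reads are worth 0.514 CPM and 0.801 CPM. Ccl2, a chemokine that draws monocytes, rose in WT (adjusted p = 0.000107). Its solvable values were no more than 0.253 CPM in CL, and its median was 1.95 log2 CPM in PI. Il1a, which encodes the cytokine IL-1 alpha, rose in KO (adjusted p = 0.00166). Its solvable values were no more than 0.548 CPM in CL, and its median was 1.89 log2 CPM in PI. Ccl2 was not listed in the KO table, nor Il1a in the WT table. The solvable CL values of Ccl2 and Il1a lie at or below 3 reads in the shallowest library of their group, so no fold is given for them. The highest library of a group cannot be solved and may lie above these values. Many of these targets are also induced by other factors.

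**Figure D3:**
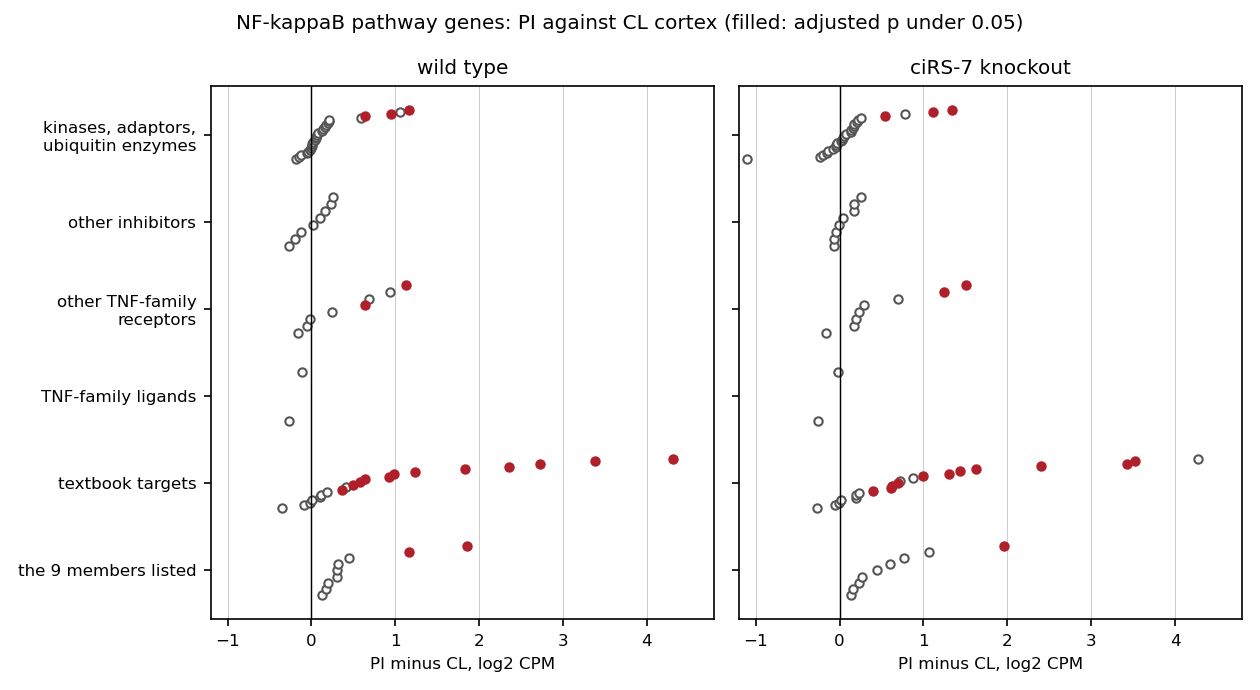
Difference between PI and CL cortex in log2 CPM for each listed gene of the 5 pathway lists and for the 9 members, in WT (left) and KO (right), with genes ordered by size within a row. Filled points passed the test: 12 of 20 textbook targets in WT and 11 of 21 in KO, and 0 of 8 other inhibitors in each. Of all genes, 10.6% passed in WT and 10% in KO.

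The second question was whether the members differed between genotypes. None of the 10 was called in PI cortex, where 0.0208% of all genes were called, and none of the 8 listed was called in CL cortex, where 0.0279% were. At an unadjusted p under 0.05 the count was 0 in each by the trimmed-mean test (5.75% and 5.73% of all genes). Limma on the deposited values also called 0 members, with and without a block. That block is the replicate number, which joins different animals in these comparisons. The median difference of the members, KO minus WT, was 0.04 in PI and -0.02 in CL. Beside this, 3 neutrophil and monocyte markers (Csf3r, S100a8 and S100a9) were listed in the table of PI KO and PI WT. They summed to 3.79 to 5.75 CPM in WT and 5.21 to 11.3 in KO. None was called, but all 3 lay higher in KO (median log2 difference 0.77), 1 of them at an unadjusted p under 0.05. The 8 microglial markers summed to 174 to 199 CPM in WT and 192 to 231 in KO. None of these was called, and 6 of the 8 lay higher in KO (median 0.18), with 1 of the 8 at an unadjusted p under 0.05.

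The 95% confidence intervals bound the differences that remain possible. For Tnfrsf1a the KO minus WT difference was 0.07 (interval -0.40 to 0.53) in PI and -0.04 (interval -0.44 to 0.36) in CL. For Nfkbia it was -0.04 (interval -0.27 to 0.18) and -0.01 (interval -0.31 to 0.30), and for Nfkb1 0.01 (interval -0.27 to 0.29) and 0.04 (interval -0.21 to 0.29). Rel differed by 0.12 in PI (interval -0.11 to 0.36) and -0.03 in CL (interval -0.34 to 0.28), Nfkbiz by 0.19 (interval -0.20 to 0.58) and -0.10 (interval -0.39 to 0.19), and Tnfaip3 by 0.01 (interval -0.35 to 0.37) and 0.09 (interval -0.26 to 0.44). Tnfrsf12a differed by -0.40 in PI (interval -1.11 to 0.32, adjusted p = 0.903), Nfkb2 by -0.12 in PI (interval -0.71 to 0.47), and Relb by 0.25 in PI (interval -0.32 to 0.82) and -0.21 in CL (interval -1.03 to 0.61).

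In CL cortex the solvable values of Rela did not overlap, at 2.06 to 2.17 log2 CPM in WT and 2.19 to 2.35 in KO. It was the only one of 8 members of which this held, and 4.35% of all genes were likewise higher without overlap. In PI cortex the count was 0 of 10, against 4.39%. The difference was 0.16 (interval -0.16 to 0.47, adjusted p = 0.948). In PI cortex the Rela groups overlapped, with a difference of 0.14 (interval -0.29 to 0.58). No pathway gene was called between genotypes in the trimmed-mean test. The smallest p among the targets belonged to Il1a in PI (0.90, adjusted p = 0.768) and Ccnd1, a cyclin gene, in CL (0.28, adjusted p = 0.638). Among the kinases and adaptors it belonged to Tradd in PI (-0.90, adjusted p = 0.854) and Traf6 in CL (-0.16, adjusted p = 0.828), among the other inhibitors to Commd1 in PI (0.37, adjusted p = 0.854) and Tnip2 in CL (0.21, adjusted p = 0.902). Among the other receptors it belonged to Tnfrsf19 in PI (0.21, adjusted p = 0.854) and Tnfrsf11b in CL (0.37, adjusted p = 0.902), and among the ligands to Eda in both (-0.22 and -0.23, adjusted p = 0.918 and 0.916).

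**Figure D4:**
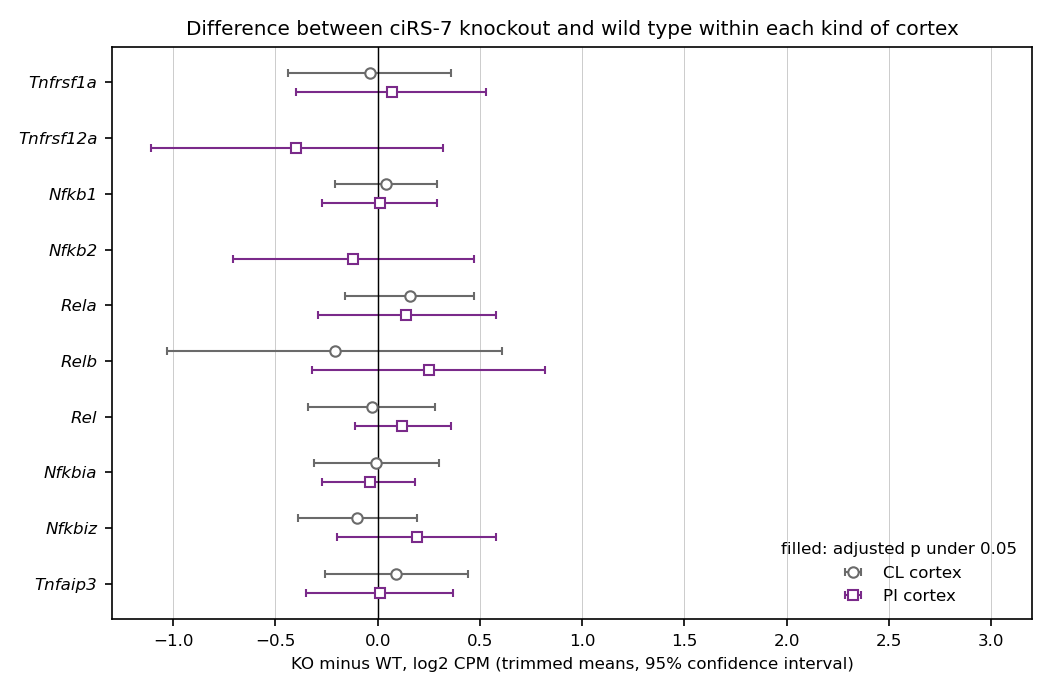
Difference of trimmed means between KO and WT in log2 CPM, with 95% confidence intervals, in CL (circles) and PI cortex (squares), on the same axis range as the plot of PI against CL. No symbol is filled, and every interval spans 0; Tnfrsf12a and Nfkb2 have no CL value.

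The last question was whether the PI minus CL difference itself depended on genotype. The interaction was called for 0 of 9 members and for 0 of 14211 genes (0.0%) in the trimmed-mean test, and 646 genes (4.55%) and 0 members had an unadjusted p under 0.05. In limma on the values as deposited the interaction passed in 1940 genes (13.7%) and 0 members. For Tnfrsf1a the step was larger in KO by 0.11 (interval -0.49 to 0.70), and for Nfkb2 the interaction was -0.08 (interval -1.21 to 1.04). The largest estimate was that of Relb, 0.45 (interval -0.50 to 1.41, adjusted p = 0.992), followed by Nfkbiz, 0.30 (interval -0.19 to 0.79, adjusted p = 0.992). The interaction was 0.15 for Rel, -0.01 for Rela, -0.03 for Nfkb1, -0.04 for Nfkbia and -0.09 for Tnfaip3. No pathway gene passed. The smallest p belonged to Tradd among the kinases and adaptors (-1.27, adjusted p = 0.992), Commd1 among the other inhibitors (0.38, adjusted p = 0.992), Tnfrsf11a among the other receptors, Tnfsf12 among the ligands (0.09, adjusted p = 0.994) and Cd44, which encodes an adhesion receptor, among the targets (-0.73, adjusted p = 0.992). That Nfkb2 passed in WT and not in KO does not show a difference between the genotypes. Without CL KO replicate 6, limma on the deposited values again called 0 members in the interaction and in CL KO against CL WT. Of all genes it called 10.8% and 12.4% there.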

How the data were processed

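Total RNA from 24 cortex libraries was depleted of ribosomal RNA and made into libraries with the CORALL kit, per the labels' protocols. The authors deposited log2 CPM values in 4 tables, 1 for each pair of groups, per the file headers; the build is mm10 per the submitters' processing notes. The aligner, counting, strand use, gene filter and scaling are not given in the sources used here. Tests stay within a table, because the tables have separate scalings: the median shift of a library from one table to the other was 0.0256 to 0.0364 log2. No column of values was left unused (0).

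The deposited values had been Winsorized. A tied value equals 0.75 times the second lowest plus 0.25 times the next, so 4 of 6 values per gene and group were solved. To check this, low CPM values were divided by the worth of 1 read. A whole number resulted (within 0.03 read) for 80.9% to 89.0% of solved values and for 11.1% to 13.8% of the deposited ones. The difference of trimmed means equals that of the deposited means, and only its error changes.

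For each gene the Winsorized sum of squares, with 6 degrees of freedom (12 for the interaction), was passed to limma 3.58.1 (R 4.3.3) with a trend; tests were two-sided. The code was tested on simulated data. The alternatives were limma on the deposited values with and without a block, no trend, centring on the median gene, a filter at 1 CPM, a pseudocount of 1 CPM, and, added after the values were seen, leaving out CL KO replicate 6. The block was the animal, except in the genotype comparisons, where it was only the replicate number.

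CL and PI samples of the same number come from the same animal, per the labels. Their deviations from the group means correlated at -0.03 to 0.25 (median 0.10) in WT and 0.00 to 0.22 (median 0.10) in KO over 11950 and 11898 genes.

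The 10 members, the pathway and marker lists and the test were chosen with earlier results of these data known. All members are named in every comparison whose table lists them. Of each pathway list the called genes with the 3 largest differences in each direction are named, or the gene with the smallest p where none was called, and for members called in both genotypes the 3 genes most like them. Tradd in the comparison of PI with CL, and the other genotype's values of Tnfrsf11a and Tnfrsf1b, were added after their values were seen. Promoter windows were matched by symbol.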

Additional observations from a re-analysis of the deposited data

How the results depend on the processing

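Over 45 member differences and 296 alternative values, 264 kept their direction and their side of the threshold. Centring on the median gene (which moves a side comparison by 0.03 to 0.04 log2), the filter at 1 CPM and the pseudocount changed none of the 45 in either respect. Without a trend, 1015 genes were called in PI WT against CL WT and 739 in PI KO against CL KO, with 2 members in KO (Relb and Tnfrsf1a).

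Limma on the deposited values made many more calls, since the drawn-in values understate the spread. Without a replicate block it called 6459 genes in PI WT against CL WT, 6666 in PI KO against CL KO, 2388 in PI KO against PI WT, 2311 in CL KO against CL WT and 1940 in the interaction. It called 6 members in WT, 8 in KO, and 35, 36, 16, 10 and 8 pathway genes in the 5 comparisons. With the replicate block it called 6614, 6759, 1800, 1868 and 2216 genes, 7 members in WT and 8 in KO, and 36, 36, 13, 8 and 10 pathway genes. Beside the fit without the block, the block added Nfkb1 in both genotypes and lost Tnfaip3 in KO. In the genotype comparisons libraries share only a number, with correlations of -0.09 to 0.13 in PI and -0.17 to 0.15 in CL, and 1 of 6 fitted its own number best in each.

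Leaving out CL KO replicate 6 from the deposited values gave 6311 genes, 7 members and 38 pathway genes in PI KO against CL KO, 1779 genes and 10 pathway genes in CL KO against CL WT, and 1533 genes and 8 pathway genes in the interaction. The interaction of Nfkb2 then turned from -0.08 to 0.05 (adjusted p = 0.941) and that of Rela from -0.01 to 0.00 (adjusted p = 0.995); the cause was not tested. Depth limits the low members most, since 3 reads are worth 0.286 to 0.801 CPM.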
